A study of Mus musculus with 8 samples.

Results

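The proteasome genes described here are the rows of the count tables whose names begin with Psma, Psmb, Psmc, Psmd, Psme or Psmg, without Psmb8, Psmb9 and Psmb10, which encode the inducible catalytic subunits. The rule found 46 of the 20340 genes in the tables. By role they were 8 genes of the alpha ring, 8 of the beta ring, 9 of the base, 8 of the lid, 7 assembly chaperones and 4 activators. Another 2 genes, Psmc3ip and Psme2b, matched the prefix and were set apart from these roles. All 46 were found in the GENCODE vM21 annotation, on 16 chromosomes.

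The data are single-cell RNA sequencing counts (10x Genomics 3' kit) from the brains of male C57BL/6J mice aged 8 to 9 weeks. All animals, whatever their genotype, had a 60 min suture occlusion of the middle cerebral artery followed by reperfusion, and live cells were sorted from each hemisphere after myelin removal. The 8 libraries were contralateral and ipsilateral hemispheres of mice labelled WT or Prdx1-/- at 24 h or 48 h, with 1 library for each combination of label, hemisphere and time. Prdx1 encodes peroxiredoxin 1, an enzyme that reduces peroxides. No group was left without surgery, so the contralateral hemisphere is the other side of an operated brain, not an uninjured control. The number of animals behind each library is not in the labels, and a p-value here measures the spread between libraries, which may be technical.

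The proteasome is the protease that degrades proteins marked with ubiquitin chains. Its barrel-shaped core has outer rings of alpha subunits, which gate the entry, and inner rings of beta subunits, of which Psmb5, Psmb6 and Psmb7 encode those with the active sites. A regulatory cap binds the barrel: its base holds the ATPases that unfold the substrate and most of the receptors for ubiquitin, and its lid holds the enzyme that removes the ubiquitin chain, while other activators, encoded by the Psme genes, can take the place of the cap. Dedicated chaperones assemble the ring and the base, and the transcription factor NRF1, encoded by Nfe2l1, is known to raise transcription of many subunit genes together when proteasome activity falls, through an antioxidant response type of element.

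The promoters of 3 subunits are printed as examples, and no link between the element and the results was tested. Psmb6 and Psmb5 encode active-site subunits and hold the element TGACNNNGC, and Psmd1, the largest base subunit, is printed because it had the largest rise of the subunits in the hemisphere comparison of microglia-like cells and its window holds none of the letters searched. The sequences are RefSeq windows on GRCm38.p6, 300 bases each, from 250 before to 50 after the start of the gene, with the element in capitals.
Psmb6: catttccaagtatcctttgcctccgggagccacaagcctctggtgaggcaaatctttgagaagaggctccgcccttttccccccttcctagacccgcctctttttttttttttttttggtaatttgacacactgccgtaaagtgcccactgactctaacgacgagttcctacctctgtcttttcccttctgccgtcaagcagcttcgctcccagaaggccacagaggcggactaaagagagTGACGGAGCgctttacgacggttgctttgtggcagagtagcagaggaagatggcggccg
Psmb5: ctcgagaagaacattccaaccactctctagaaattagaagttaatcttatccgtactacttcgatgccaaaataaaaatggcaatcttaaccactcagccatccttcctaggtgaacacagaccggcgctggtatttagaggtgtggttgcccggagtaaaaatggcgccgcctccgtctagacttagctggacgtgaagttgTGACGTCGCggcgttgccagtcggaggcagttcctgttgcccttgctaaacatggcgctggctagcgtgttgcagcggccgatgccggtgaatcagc
Psmd1: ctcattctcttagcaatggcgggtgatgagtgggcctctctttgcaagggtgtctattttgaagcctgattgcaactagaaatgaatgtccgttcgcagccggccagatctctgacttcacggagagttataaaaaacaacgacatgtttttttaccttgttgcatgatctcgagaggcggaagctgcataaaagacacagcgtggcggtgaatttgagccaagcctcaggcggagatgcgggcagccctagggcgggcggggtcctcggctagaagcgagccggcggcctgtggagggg
The windows lie at chr11:70525107-70525406 on the plus strand for Psmb6, chr14:54617946-54618245 on the minus strand for Psmb5 and chr1:86064369-86064668 on the plus strand for Psmd1. Counted from the start-site base as 0, the element began at -9 in Psmb6 and at -47 in Psmb5.
RefSeq windows were matched for 38 of the 46 genes, 41 windows in all. TGACNNNGC, searched on both strands, was in 6 of the 41 windows (14.6%), against 12.4% of all 32851 windows of the table. The 6 were those of Psmb5, Psmb6, Psmc6, Psmd9, Psmd12 and Psme4. CCAAT was in 14 windows (34.1%, against 37.4% of all) and GAAANNGAA, part of an interferon type of element, in 7 (17.1%, against 8.56% of all). These are matches of letters, and binding was not measured.

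After filters on cells, 38025 of 39945 cells were used, 4019 to 5441 per library, and the 8 libraries held 436780956 counts of unique molecular identifiers (UMIs) as deposited. Cell classes were called per cell from marker genes, and 3995 cells were given no class. Classes with at least 20 cells in every library were microglia-like (20300 cells, 426 to 4618 per library), monocyte/macrophage-like (6094, 73 to 2152), neutrophil-like (5591, 44 to 1694) and T-like (549, 29 to 115) cells. Of the cells used, 5447 lay near the cut of the class rule. In microglia-like cells the 11 microglia markers summed to 10779 to 24790 CPM (counts per 1000000 UMIs of the class in a library), and the 8 T cell markers to at most 6.61 CPM. Other lists reached higher sums there: ependymal/choroid markers up to 975 CPM, neutrophil up to 814, monocyte/macrophage up to 601, erythrocyte up to 383 and B cell up to 256. The libraries labelled Prdx1-/- still held Prdx1 at 24 h: in microglia-like cells Prdx1 was at 90.1 CPM contralaterally and 289 CPM ipsilaterally there, against 263 and 477 CPM under the WT label. At 48 h the 2 libraries labelled Prdx1-/- held 5.94 and 5.23 CPM, so the label is used here as a label only. Barcodes shared between libraries numbered 203 of 39742.

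In microglia-like cells, proteasome genes were higher in the ipsilateral than in the contralateral hemisphere. The summed level of the 46 genes was 4379 and 4503 CPM in the contralateral libraries labelled WT and Prdx1-/- at 24 h, and 4940 and 4974 CPM in those at 48 h. The ipsilateral libraries held 6331, 5912, 5787 and 5700 CPM in the same order. The hemispheres did not overlap, with means of 4699 ± 303 and 5933 ± 280 CPM (SD, n = 4 libraries each, which differ in label and time).

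**Figure D1:**
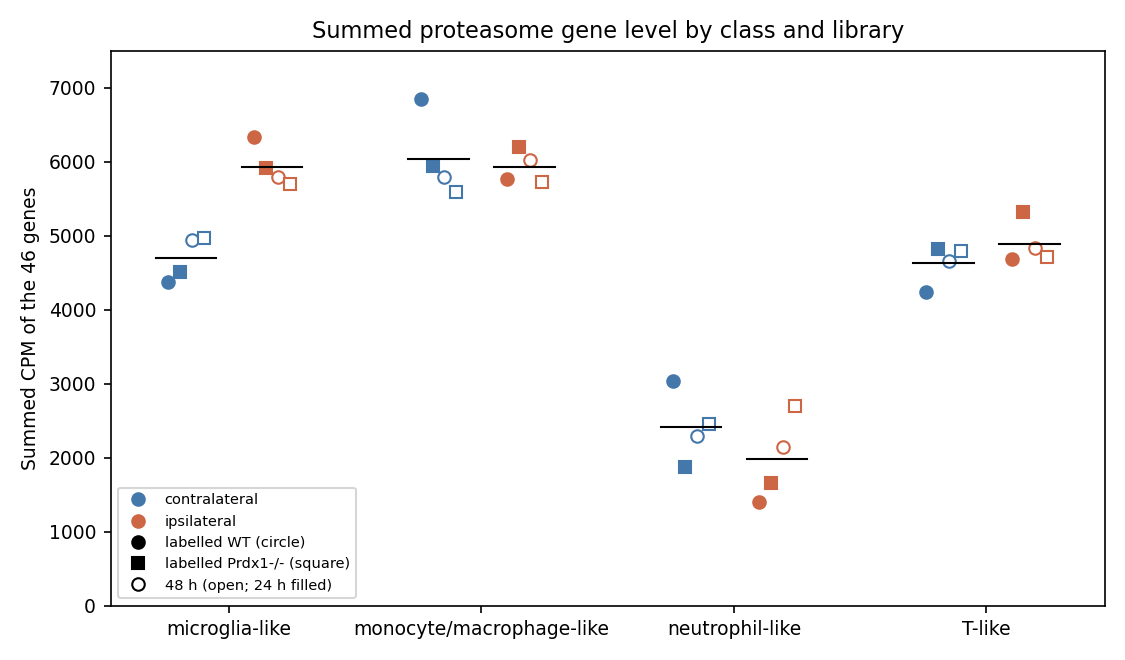
Summed CPM of the 46 genes (vertical axis, from 0) in each library, by cell class (horizontal axis). Points are libraries, colour gives the hemisphere, shape the genotype label, fill the time, and the bars are the means of 4 libraries; in microglia-like cells all ipsilateral points lie above all contralateral points, and neutrophil-like cells are the lowest class.

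Of the 45 genes that passed the filter on low counts (all but Psmb11), 37 rose and 1 fell on the ipsilateral side by edgeR's quasi-likelihood test (adjusted p under 0.05). Of all 13684 genes tested in this comparison, 41.5% were called, 21% as higher and 20.4% as lower. The median log2 fold change of the 45 genes was 0.44, against -0.0016 for all genes tested. In 27 of the 46 genes the 4 ipsilateral libraries were all above the 4 contralateral ones (8.25% of all genes tested), and in 1 gene they were all below (22.9% of all genes tested).

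All 7 tested genes of the beta ring rose, with log2 fold changes of 0.33 to 0.68 and a median of 0.55. Psmb6, the caspase-like active site, was at 156, 158, 195 and 179 CPM in the contralateral libraries (labels WT and Prdx1-/- at 24 h, then both labels at 48 h) and at 293, 238, 264 and 230 CPM in the ipsilateral ones. All ipsilateral values were above all contralateral ones, and the log2 fold change was 0.68 (SE 0.10, adjusted p = 0.0009).
Psmb5, the chymotrypsin-like site and the usual target of proteasome inhibitors, was at 140, 148, 150 and 157 CPM contralaterally and at 224, 195, 194 and 198 CPM ipsilaterally, with a fitted log2 change of 0.56 (SE 0.08, adjusted p = 0.00077). Psmb7, the trypsin-like site, was at 92.6, 96.9, 118 and 119 CPM contralaterally and at 132, 137, 149 and 143 CPM ipsilaterally, with a fitted log2 change of 0.51 (SE 0.08, adjusted p = 0.0013). None of the 3 active-site genes overlapped between hemispheres. Psmb4, a structural member of the same ring, had a fitted log2 change of 0.62 (SE 0.08, adjusted p = 0.000335).
Psmb11, the beta subunit known from the thymic cortex, did not exceed 0.181 CPM in any library and was not tested.

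In the alpha ring, 7 of 8 genes rose by log2 values of 0.38 to 0.51. Psma5 and Psma1 had the largest values, 0.51 each (SE 0.12 and 0.09). The member that was not called was Psma8, the alpha subunit known from testis, with a mean of 3.92 CPM and a fitted log2 change of 0.19 (SE 0.16, adjusted p = 0.38).

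All 9 genes of the base rose. The call of Psmd4 was kept in 13 of 18 alternatives and lost, among others, with library totals. Psmd1, a scaffold of the base, was at 88.7, 95.0, 101 and 94.0 CPM contralaterally and at 153, 145, 131 and 145 CPM ipsilaterally, with a fitted log2 change of 0.71 (SE 0.09, adjusted p = 0.00034). Psmd2, which docks ubiquitin-like domains of shuttle proteins, was at 83.8, 85.9, 97.4 and 97.4 CPM contralaterally and at 144, 134, 134 and 136 CPM ipsilaterally, with a fitted log2 change of 0.70 (SE 0.08, adjusted p = 0.00027). Both genes were separated by hemisphere in every library.
The ATPase genes Psmc1 to Psmc6 had log2 fold changes from 0.37 (Psmc3) to 0.60 (Psmc4). Psmd4, a receptor for ubiquitin chains, rose least in the base with 0.36 (SE 0.10, adjusted p = 0.020), and its hemispheres overlapped, because the WT 48 h pair had 135 CPM contralaterally and 130 CPM ipsilaterally.

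All 8 genes of the lid rose. The calls of Psmd6 and Psmd7 were kept in 11 and 13 of 18 alternatives and lost, among others, with library totals. Psmd14, the metalloprotease that cuts ubiquitin chains from the substrate, was at 57.8, 65.1, 76.0 and 80.0 CPM contralaterally and at 116, 108, 92.7 and 96.1 CPM ipsilaterally. Its hemispheres did not overlap, and the log2 fold change was 0.69 (SE 0.13, adjusted p = 0.00495). Psmd12, a scaffold subunit of the lid, had 0.65 (SE 0.13, adjusted p = 0.00435). The smallest value in the lid was 0.27 for Psmd6 (SE 0.08, adjusted p = 0.0225).

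**Figure D2:**
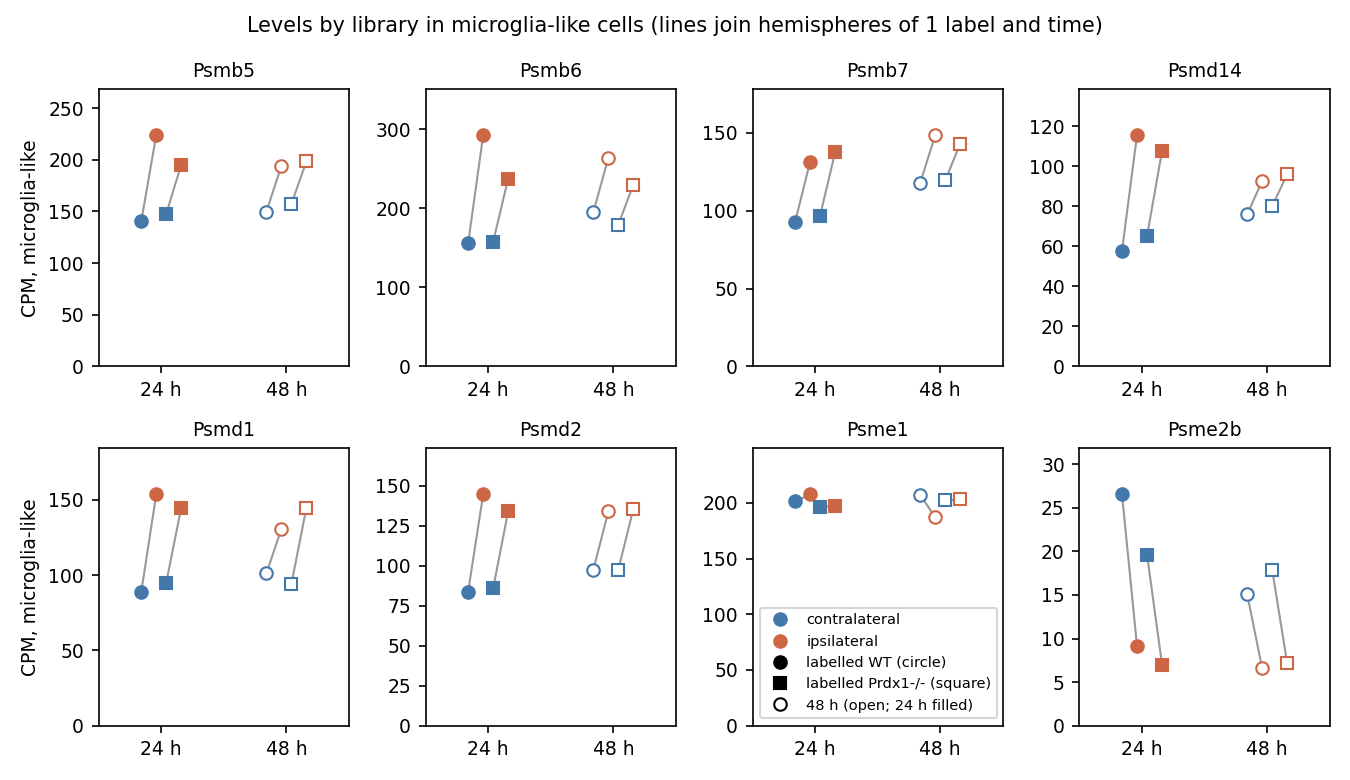
CPM (vertical axes, each from 0) of 8 genes in microglia-like cells at 24 h and 48 h (horizontal axis), 1 point per library, with lines joining the hemispheres of the same label and time. Psmb5, Psmb6, Psmb7, Psmd14, Psmd1 and Psmd2 lie higher on the ipsilateral side in all 4 pairs, Psme1 stays between 187 and 208 CPM, and Psme2b is lower on the ipsilateral side in all 4 pairs.

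Of the 7 chaperones, 2 rose: Psmd9 (log2 fold change 0.27, SE 0.08, adjusted p = 0.020) and Psmd10 (0.23, SE 0.08, adjusted p = 0.048), both of which help to assemble the base. The call of Psmd9 was kept in 12 of 18 alternatives and lost, among others, with library totals. That of Psmd10 was kept in 6 of 18 alternatives. It was lost, among others, with a block pairing hemispheres of the same label and time (0.24, SE 0.09, adjusted p = 0.059 by edgeR) and with library totals (0.12, SE 0.08, adjusted p = 0.25 by edgeR). Psmd5, the third base chaperone of the list, had 0.13 (SE 0.09, adjusted p = 0.29). The alpha-ring chaperones Psmg1 to Psmg4 had log2 fold changes of 0.19, -0.06, 0.11 and 0.19 (SE 0.08 to 0.09), and none passed the threshold. The chaperones' summed level was 215 to 234 CPM contralaterally and 221 to 237 CPM ipsilaterally, so the hemispheres overlapped. Whether the chaperones differ from the subunits was not tested.

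Of the 4 activators, 3 rose. The calls of Psme2 and Psme4 were kept in 15 and 11 of 18 alternatives and lost, among others, with library totals. Psme3, which encodes the nuclear activator PA28-gamma, had the largest value (0.50, SE 0.09, adjusted p = 0.00204), followed by Psme2 (0.28, SE 0.08, adjusted p = 0.0155) and Psme4, the PA200 gene (0.21, SE 0.06, adjusted p = 0.0254). Psme1, the partner of Psme2 in the interferon-inducible PA28 ring, was at 201, 196, 207 and 202 CPM contralaterally and at 208, 198, 187 and 203 CPM ipsilaterally. The sides overlapped and the log2 fold change was 0.09 (SE 0.08, adjusted p = 0.37).

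The 2 genes set apart from the roles moved in opposite directions. Psmc3ip, which encodes a partner of meiotic recombinases, was at 4.46, 5.58, 12.6 and 10.6 CPM contralaterally and 9.63, 8.28, 20.4 and 16.0 CPM ipsilaterally, with a fitted log2 change of 0.84 (SE 0.14, adjusted p = 0.00126). Psme2b, an intronless copy of Psme2, was at 26.5, 19.6, 15.1 and 17.9 CPM contralaterally and 9.15, 7.01, 6.59 and 7.17 CPM ipsilaterally. All ipsilateral values of Psme2b were lower, with a fitted log2 change of -1.29 (SE 0.12, adjusted p = 8.6e-05).
The counts of Psme2b are uncertain for reasons the annotation shows. Its transcript matches Psme2-208 at 99.37% of aligned bases, and it lies at chr11:48945354-48946190 on the minus strand, where it overlaps the end of 9930111J21Rik1 and lies inside Gm12185 on the same strand. In the same fit 9930111J21Rik1 fell with a fitted log2 change of -1.15 (SE 0.20, adjusted p = 0.00171), and Gm12185 had -0.39 (SE 0.33, adjusted p = 0.38). How the authors assigned reads that fit more than 1 of these genes is not given in the sources used here.

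**Figure D3:**
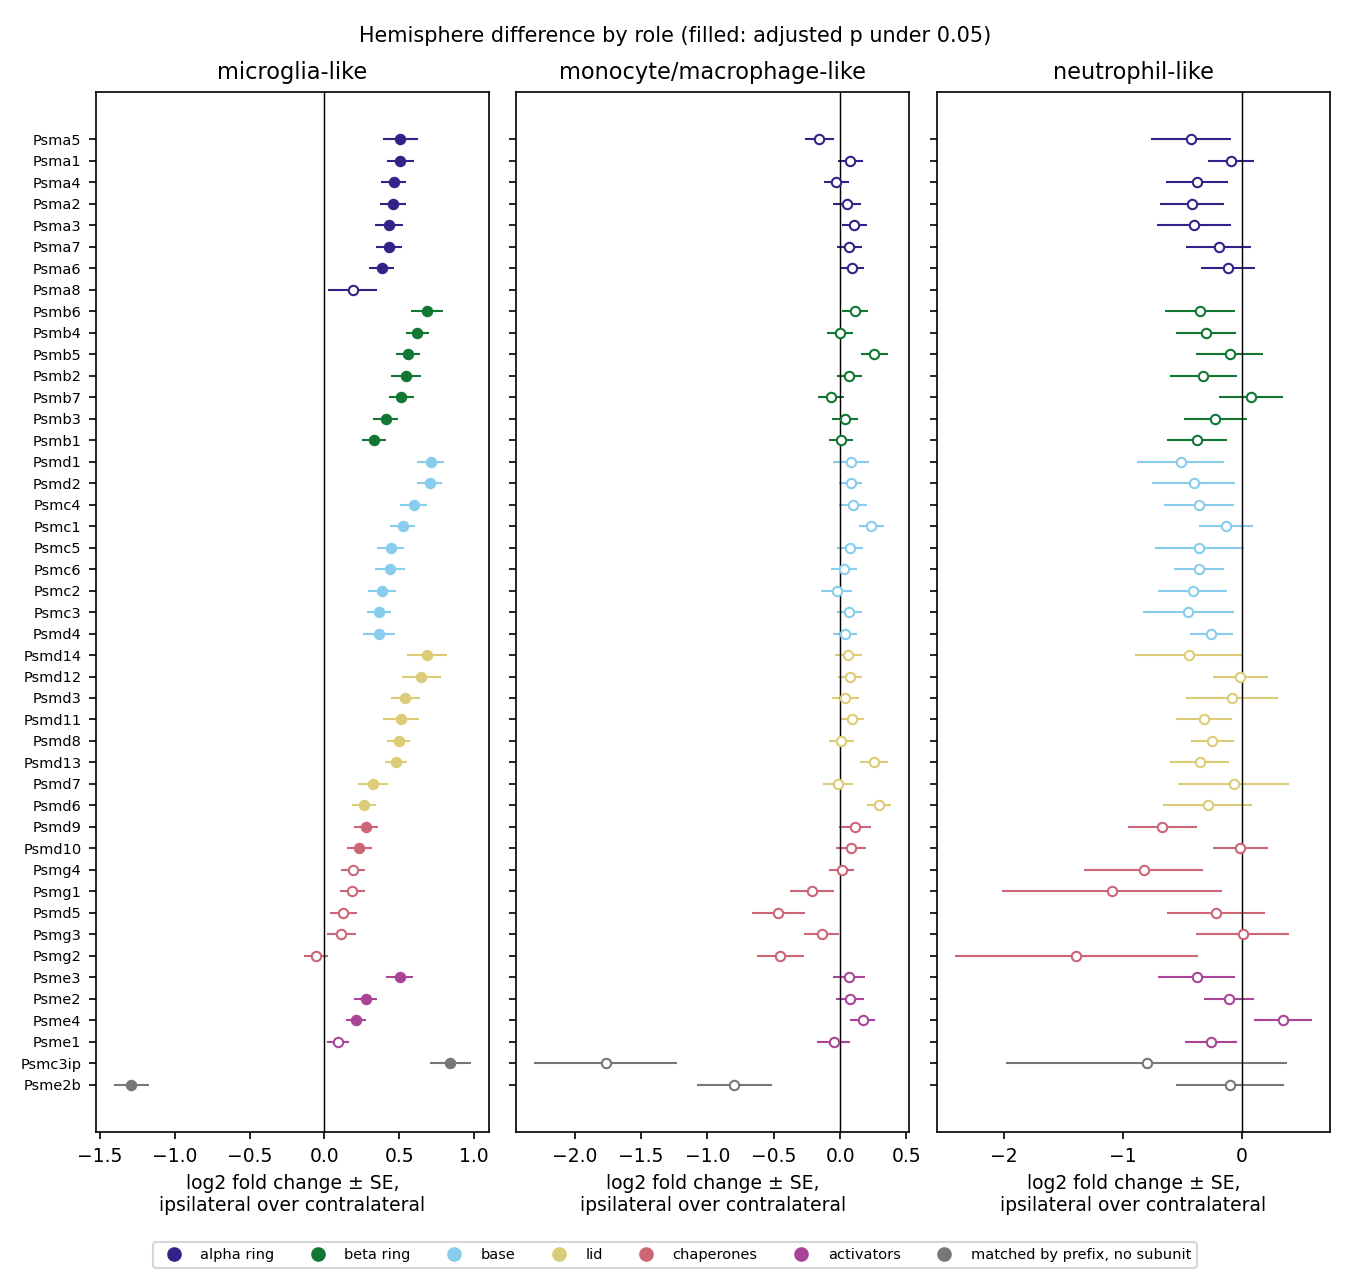
Log2 fold change with SE, ipsilateral over contralateral (horizontal axes, with their own ranges), of each tested gene (vertical axis, ordered by role), in microglia-like, monocyte/macrophage-like and neutrophil-like cells. Filled points passed the adjusted p of 0.05: 38 in microglia-like cells and none in the other 2 classes.

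Other quantities moved with the hemisphere in the microglia-like class, and their part in the result was not tested. Median UMIs per cell were 7136 to 7900 contralaterally and 11166 to 12653 ipsilaterally. The 11 microglia markers summed to 16415 to 24790 CPM contralaterally and 10779 to 12541 CPM ipsilaterally, with 9 of the 11 lower without overlap. The 11 neutrophil markers summed to 22.7 to 150 CPM contralaterally and 303 to 814 CPM ipsilaterally, with 6 of the 11 higher without overlap. The 12 monocyte/macrophage markers summed to 68.7 to 244 CPM contralaterally and 197 to 601 CPM ipsilaterally, with 1 of 12 higher without overlap. In monocyte/macrophage-like cells themselves the same 12 markers summed to 14688 to 22606 CPM, and no marker of either list was at 0 in microglia-like cells. The 5 homeostatic genes P2ry12, Tmem119, Siglech, Sall1 and Gpr34 summed to 3058 to 5350 CPM contralaterally and 1461 to 2035 CPM ipsilaterally, with 5 of 5 lower without overlap. The 5 stroke-associated genes Spp1, Lpl, Mmp12, Gpnmb and Fabp5 summed to 467 to 811 CPM contralaterally and 3070 to 10671 CPM ipsilaterally, with 4 of 5 higher without overlap. The 10 dissociation and immediate-early genes summed to 16957 to 26746 CPM contralaterally and 19600 to 25000 CPM ipsilaterally. With library totals in place of TMM scaling, the median of all genes moved to -0.12 and that of the proteasome genes to 0.33, with 30 higher and 1 lower (41.8% of all genes called, 14.4% as higher and 27.5% as lower); Psme1 (-0.0209) and Psmg3 (-0.0033), neither of which passed, turned below 0.

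The median hemisphere difference of these genes was larger in the 24 h than in the 48 h libraries, but the test of that change called no gene. Fitted on the 24 h libraries alone, 40 genes rose and 1 fell (46.1% of 13012 genes called, 23.2% as higher and 22.9% as lower), with a median log2 fold change of 0.57. On the 48 h libraries alone, 23 rose and 1 fell (29.8% of 12626 called, 14.5% as higher and 15.4% as lower), with a median of 0.26. Psmd14 had 0.98 (SE 0.09) at 24 h and 0.35 (SE 0.09) at 48 h, Psmd12 0.92 (SE 0.08) and 0.34 (SE 0.09), and Psmb6 0.87 (SE 0.09) and 0.47 (SE 0.10). Psmd1 had 0.82 (SE 0.08) and 0.57 (SE 0.10). Each of these fits holds 1 library per hemisphere and label, so the SEs rest on little replication.
The interaction of hemisphere and time, fitted over all 8 libraries, was below 0 for 42 of 45 genes with a median of -0.30, against -0.07 for all genes. No proteasome gene passed (0.0877% of all genes did), while 23 had an unadjusted p under 0.05 and DESeq2 called 1, Psmd14. By edgeR's quasi-likelihood test Psmd14 had -0.67 (SE 0.13, adjusted p = 0.11), Psmd12 -0.60 (SE 0.15, adjusted p = 0.15) and Psmd3 -0.46 (SE 0.12, adjusted p = 0.15). Without the library labelled Prdx1-/- contralateral 24 h, 2 genes passed, Psmd14 and Psmd12.

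**Figure D4:**
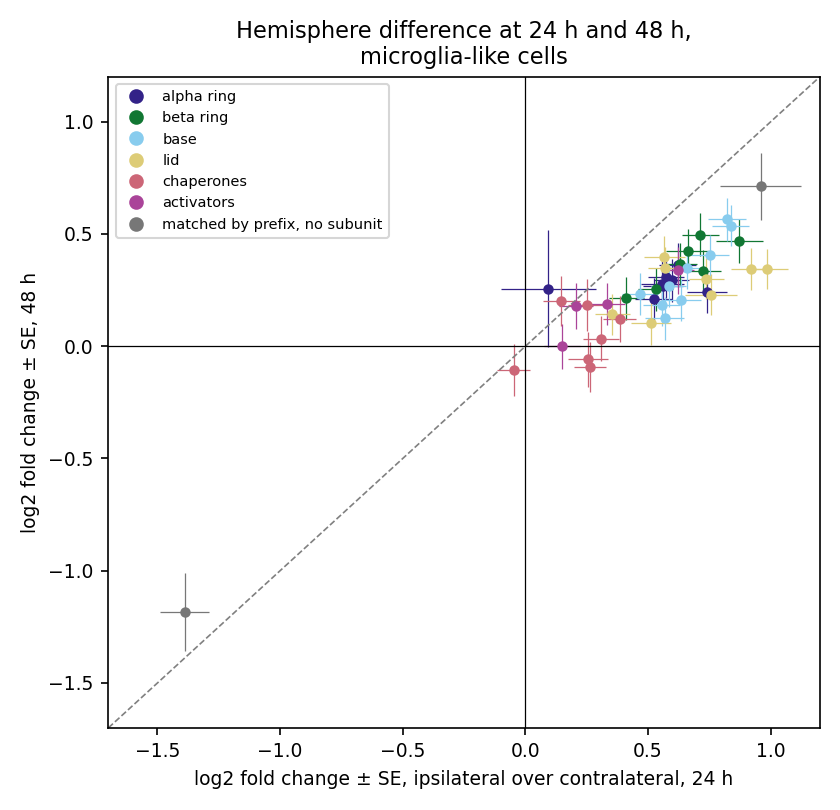
Log2 fold change with SE, ipsilateral over contralateral, in microglia-like cells of the 24 h libraries (horizontal axis) and of the 48 h libraries (vertical axis), 1 point per gene, coloured by role. The dashed line marks equal values; most subunit genes lie below it, with medians of 0.57 at 24 h and 0.26 at 48 h.

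Time itself moved few of these genes in microglia-like cells. In the fit over all 8 libraries 1 gene rose from 24 h to 48 h and 1 fell, of 45 (13.2% of all genes called, 7.23% as higher and 5.99% as lower). They were the genes set apart from the roles, Psmc3ip (log2 fold change 1.05, SE 0.14, adjusted p = 0.00096 by edgeR) and Psme2b (-0.43, SE 0.12, adjusted p = 0.037 by edgeR). The call of Psmc3ip was kept with each library left out in turn, and that of Psme2b was lost in all 8 of those fits.
In the ipsilateral libraries alone 7 genes fell and 1 rose (16.7% of 12072 genes called, 9.19% as higher and 7.55% as lower). Those that fell were the lid genes Psmd11 (-0.48, SE 0.10, adjusted p = 0.00527), Psmd3 (-0.43, SE 0.10, adjusted p = 0.00783), Psmd7 (-0.42, SE 0.10, adjusted p = 0.0105), Psmd12 (-0.37, SE 0.10, adjusted p = 0.0225) and Psmd14 (-0.29, SE 0.09, adjusted p = 0.048), with the ATPase Psmc1 and the chaperone Psmg3. In the contralateral libraries alone 1 rose and 1 fell (8.38% of 13244 called, 5.88% as higher and 2.5% as lower), and the median over the 45 genes was 0.11.

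Microglia-like cells of the ipsilateral side were divided into a stroke-associated gate (Spp1, Lpl, Mmp12, Gpnmb, Fabp5) and a homeostatic gate (P2ry12, Tmem119, Siglech, Sall1, Gpr34). The stroke-associated gate held 389 and 144 cells in the 24 h libraries labelled WT and Prdx1-/-, and 69 and 29 cells in those at 48 h. Of its cells over all libraries, 24.2% lay near the cut of the class rule. Nearness to the boundary between the gates was not measured. Summed over the 46 genes, the stroke-associated cells held 8480, 7763, 8695 and 6085 CPM, and the homeostatic cells of the same libraries 5101, 5454, 5215 and 5613 CPM. The stroke-associated gate was higher in all 4 libraries, with the smallest gap in the library labelled Prdx1-/- 48 h, which had the fewest stroke-associated cells.
With the library as a block, 26 genes were higher in the stroke-associated gate and 1 was lower, of 45 tested (24.2% of 11364 genes called, 10.9% as higher and 13.3% as lower). The median log2 fold change was 0.46, against -0.02 for all genes.

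The core and cap genes made up all of those that were higher: 7 of 8 in the alpha ring, 5 of 7 in the beta ring, 7 of 9 in the base and 7 of 8 in the lid. Psmb6 was at 467, 391, 547 and 355 CPM in the stroke-associated gate and at 194, 203, 209 and 222 CPM in the homeostatic gate (ipsilateral libraries, same order). It was higher in every library, with a fitted log2 change of 1.03 (SE 0.13, adjusted p = 0.000116). Psmb5 was at 331, 283, 314 and 241 CPM against 168, 177, 171 and 194 CPM, with a fitted log2 change of 0.68 (SE 0.13, adjusted p = 0.0022). Psmb7 was at 165, 170, 174 and 124 CPM against 113, 129, 142 and 145 CPM. Psmb7 was thus lower in the stroke-associated gate of 1 library, and its log2 fold change was 0.24 (SE 0.13, adjusted p = 0.22).
Psmd11 (0.80, SE 0.14, adjusted p = 0.00167), Psmd14 (0.75, SE 0.12, adjusted p = 0.000846), Psmd1 (0.74, SE 0.11, adjusted p = 0.000435) and Psmd8 (0.71, SE 0.12, adjusted p = 0.00137) followed. None of the 7 chaperones (-0.23 to 0.26) and none of the 4 activators (-0.25 to 0.27) passed. Psme1 had the lowest value of the activators, -0.25 (SE 0.11, adjusted p = 0.12). Psme2b fell by 0.99 on the log2 scale (SE 0.26, adjusted p = 0.0157 by edgeR), from few counts. It was at 2.64 to 5.92 CPM in the stroke-associated gate of the ipsilateral libraries, with 58 UMIs in that gate over all 8 libraries.
The count fell to 10 without the library labelled WT ipsilateral 24 h and to 11 without the library labelled Prdx1-/- ipsilateral 24 h, all of them higher. With all 8 libraries, 30 were higher and 1 lower (25.9% of genes called, 10.5% as higher and 15.3% as lower). Among those libraries the stroke-associated gate held as few as 7 cells, below the 20 cells per library asked of the classes. The stroke-associated cells were deeper, with median UMIs of 13975 to 16327 against 9683.5 to 12749 in the homeostatic cells of the ipsilateral libraries. The median mitochondrial percentage was 1.11 to 2.46 in the stroke-associated cells, against 3.52 to 4.04 in the homeostatic cells, and the 10 dissociation and immediate-early genes summed to 10666 to 16989 CPM against 19948 to 27284 CPM. The part of these quantities in the gate difference was not tested.

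**Figure D5:**
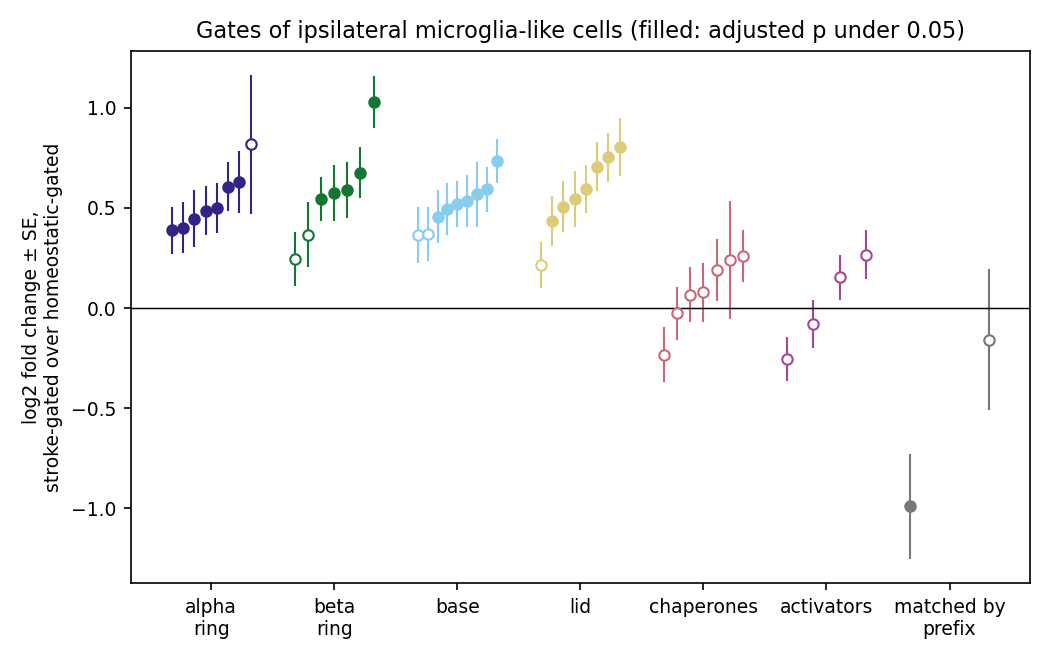
Log2 fold change with SE of stroke-associated over homeostatic gate in ipsilateral microglia-like cells (vertical axis) for each tested gene, grouped by role (horizontal axis). Filled points passed the adjusted p of 0.05: 26 core and cap genes lie above 0, Psme2b lies below it, and no chaperone or activator is filled.

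The hemisphere difference was also present within the homeostatic gate alone, where 33 genes rose and 1 fell (37.9% of 13235 genes called, 19.4% as higher and 18.5% as lower) with a median of 0.31. Psmb6 had 0.41 (SE 0.08, adjusted p = 0.0029) in these cells, Psmb5 0.39 (SE 0.06, adjusted p = 0.00127), Psmd1 0.53 (SE 0.08, adjusted p = 0.00118) and Psmd14 0.49 (SE 0.10, adjusted p = 0.00558). The 18360 homeostatic cells summed to 4342 to 4926 CPM over the 46 genes contralaterally and to 5101 to 5613 CPM ipsilaterally. Other quantities also moved with the hemisphere within this gate, and their part was not tested. The 5 homeostatic genes summed to 3230.5 to 5462.5 CPM contralaterally and 1762 to 3073 CPM ipsilaterally. In the same order, the 5 stroke-associated genes summed to 256 to 599 and 1076 to 1750 CPM. The 11 neutrophil markers summed to 19.6 to 149 and 315 to 807 CPM. Median UMIs per cell were 7119 to 7902 and 9683.5 to 12749.

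In monocyte/macrophage-like cells no proteasome gene was called between hemispheres (0 of 44, with 2.62% of 10728 genes called by edgeR's quasi-likelihood test). Their summed level was 6843, 5936, 5797 and 5588 CPM contralaterally and 5766, 6192, 6020 and 5720 CPM ipsilaterally, and the sides overlapped. The median log2 fold change was 0.06, with 8 genes at an unadjusted p under 0.05. Psmd6 had 0.30 (SE 0.09, adjusted p = 0.13), and Psmb5 had 0.26 (SE 0.10, adjusted p = 0.21). DESeq2 called 1 gene, Psmc3ip, as lower.
The class held 73 to 392 cells per library contralaterally and 553 to 2152 ipsilaterally, and 29.6% of its cells lay near the cut of the class rule. The 11 neutrophil markers summed to 7699 CPM in its library labelled WT contralateral 24 h, which held 73 cells. They summed to 811 to 3564 CPM in the other libraries. The part of these quantities in the comparison was not tested.

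In neutrophil-like cells no gene was called either (0 of 44, with 0% of 9140 genes called by edgeR, 1 gene at an unadjusted p under 0.05 and 0 by DESeq2). The summed level was 3038, 1877, 2295 and 2449 CPM contralaterally and 1407, 1656, 2150 and 2694 CPM ipsilaterally. The median log2 fold change was -0.32, with 41 of 44 genes below 0, and it was -0.0052 without the library labelled WT contralateral 24 h. That library held 96 neutrophil-like cells, with a mean of 36.6 UMIs of these genes per cell and a median of 12.

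Whether the hemisphere difference itself differed between classes was tested by a class by hemisphere term with the library as a block. For monocyte/macrophage-like minus microglia-like cells the median was -0.31, and 42 of 45 genes were below 0. None passed in edgeR's quasi-likelihood test (1.15% of 13657 genes called), 16 had an unadjusted p under 0.05, and DESeq2 called 11 as lower (5.65% of its genes called), Psmd2 (-0.56, SE 0.13, adjusted p = 0.000887) first among them. In edgeR Psmd2 had -0.53 (SE 0.13, adjusted p = 0.079). For neutrophil-like minus microglia-like cells the median was -0.69, none of the 45 passed in edgeR (0.232% of 12523 genes called) or in DESeq2 (1.9% called), and 16 had an unadjusted p under 0.05. Leaving out the library labelled WT contralateral 24 h brought that median to -0.40.

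Between the genotype labels no proteasome gene was called in any of the 3 classes. In microglia-like cells the log2 fold changes of Prdx1-/- over WT ran from -0.20 to 0.19 with a median of 0.02, 0 of 45 passed (0.0512% of all genes did), and none had an unadjusted p under 0.05 or a call by DESeq2. The median SE was 0.09. Psme3 had the smallest p, with 0.19 (SE 0.09, adjusted p = 0.49 by edgeR). At 48 h, where Prdx1 was low in the libraries labelled Prdx1-/-, none of 45 passed (0.0804% of genes), the median was -0.03 and Psma1 had -0.19 (SE 0.12, adjusted p = 0.71).
In monocyte/macrophage-like cells 0 of 44 passed (0% of genes), with values of -0.22 to 0.08, and at 48 h 0 of 44 passed (0.00932% of genes), with values of -0.27 (Psme1) to 0.20. In neutrophil-like cells 0 of 44 passed (0% of genes), with values of -0.44 to 0.84. In these 3 comparisons and at 48 h in microglia-like cells DESeq2 called none, and none had an unadjusted p under 0.05. The interaction of hemisphere and genotype label in microglia-like cells was between -0.24 and 0.17, and 0 of 45 passed (0% of genes, none by DESeq2, none at an unadjusted p under 0.05).

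Time was also tested in the other 2 classes. In monocyte/macrophage-like cells 0 of 44 genes passed by edgeR (1.89% of genes called), 9 had an unadjusted p under 0.05 and 38 were below 0, with a median of -0.12. DESeq2 called 3: Psma6 (-0.43, SE 0.10, adjusted p = 0.000807) and Psmb3 (-0.34, SE 0.11, adjusted p = 0.0345) as lower at 48 h, and Psme4 (0.39, SE 0.13, adjusted p = 0.047) as higher. In neutrophil-like cells 0 of 44 passed (0.0219% of genes), none had an unadjusted p under 0.05 or a call by DESeq2, and the median was 0.01. The interaction of hemisphere and time in monocyte/macrophage-like cells had a median of 0.05, and 0 of 44 passed (0% of genes, 2 at an unadjusted p under 0.05, 0 by DESeq2).

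Between classes, the summed level of proteasome genes was lowest in neutrophil-like cells. The means over 8 libraries of the summed level were 5983 ± 395 CPM in monocyte/macrophage-like, 5316 ± 712 CPM in microglia-like, 4759 ± 295 CPM in T-like and 2196 ± 541 CPM in neutrophil-like cells (SD, n = 8 libraries each). Neutrophil-like cells did not overlap with the others in any library, with a highest value of 3038 CPM. In these cells the 11 neutrophil markers alone summed to 163590 to 332390 CPM, and their part in the low sum was not tested. Monocyte/macrophage-like cells (5588 to 6843 CPM) overlapped with microglia-like cells (4379 to 6331 CPM). They were the higher class in all 4 contralateral libraries. On the ipsilateral side they were lower only in the library labelled WT 24 h (5766 against 6331 CPM). Their ipsilateral mean was 5925 CPM, against 5933 CPM in microglia-like cells. Microglia-like cells in turn overlapped with T-like cells (4245 to 5321 CPM).
A UMI count has no length term, so these sums compare classes, not genes. The class comparisons below share the microglia-like sums, and their counts depend on the scaling. Each is therefore also given relative to the median of all genes. Between the scalings, the median of the proteasome genes changed sign only for monocyte/macrophage-like cells (0.45 under TMM, -0.09 with library totals).

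Against microglia-like cells, monocyte/macrophage-like cells had 32 genes higher and 4 lower of 45 under TMM scaling (71% of 13657 genes called, 32% as higher and 39% as lower), but 15 higher and 19 lower with library totals (79.8% called, 18.8% as higher and 61% as lower). The median of all genes moved from -0.16 to -0.70 between the scalings, and the proteasome genes lay 0.61 above it under TMM and 0.62 above it with library totals. All 7 tested beta-ring genes and 7 of 8 alpha-ring genes were higher under TMM, against 7 of 9 in the base and 5 of 8 in the lid. The largest were Psma7 (log2 fold change 1.39, SE 0.09, adjusted p = 3e-08), Psmb1 (1.39, SE 0.08, adjusted p = 1.8e-08) and Psmg4, an alpha-ring chaperone (1.33, SE 0.08, adjusted p = 2.9e-08).
Psmg2, the partner of Psmg1 in ring assembly, was lower (-0.72, SE 0.10, adjusted p = 4.9e-05), and so was Psma8 (-2.86, SE 0.30, adjusted p = 2.9e-06). Psma7 was at 371 to 470 CPM in monocyte/macrophage-like libraries and at 182 to 265 CPM in microglia-like ones. Psmg4 was at 60.2 to 85.9 CPM against 36.0 to 44.4 CPM, and Psmg2 at 10.2 to 26.8 CPM against 24.7 to 35.6 CPM.

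Neutrophil-like cells had 5 genes higher and 22 lower than microglia-like cells under TMM (73.7% of 12523 genes called, 32.4% as higher and 41.3% as lower), and 0 higher and 44 lower with library totals (82.9% called, 16.7% as higher and 66.2% as lower). Relative to the median of all genes, the proteasome genes lay at -0.24 under TMM and -0.23 with library totals. Under TMM, 7 of 9 base genes, 6 of 8 lid genes, 5 of 7 chaperones, 3 of 8 alpha-ring genes and 1 of 7 beta-ring genes were lower. After the sparse Psma8 (-3.93) and Psmg2 (-2.24), Psmd1 had the lowest value (-1.67, SE 0.24, adjusted p = 3e-05), with 11.3 to 35.5 CPM against 88.7 to 153 CPM in microglia-like cells. Psmd7, the partner of Psmd14 in the lid, had -1.59 (SE 0.22, adjusted p = 2e-05) and Psmd3 -1.42 (SE 0.22, adjusted p = 4.2e-05).
Of the active-site genes, Psmb5 had 0.02 (SE 0.17, adjusted p = 0.92), Psmb7 -0.26 (SE 0.15, adjusted p = 0.14) and Psmb6 -0.70 (SE 0.21, adjusted p = 0.0073). The 5 genes that were higher under TMM were Psmd10, Psma2, Psmb3, Psmd4 and Psmd13, and none of them was higher with library totals. Neutrophil-like cells held 44 to 1694 cells per library, and a median of 6.0 to 12 UMIs of all 46 genes per cell, against 30.0 to 70.0 in microglia-like cells.

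Under TMM, T-like cells had 9 genes higher and 22 lower than microglia-like cells (60.5% of 11926 called, 25.8% as higher and 34.7% as lower). With library totals they had 7 higher and 28 lower (62.2% called, 22.4% as higher and 39.7% as lower). Relative to the median of all genes, the proteasome genes lay at -0.15 under both scalings. The interferon-inducible activators stood among those that were higher: Psme1 was at 342 to 441 CPM, against 187 to 208 CPM in microglia-like cells (log2 fold change 1.08, SE 0.10, adjusted p = 7.7e-10), and Psme2 had 0.87 (SE 0.12, adjusted p = 3.5e-07). Psmb1, a structural beta subunit, had the largest value (1.22, SE 0.11, adjusted p = 2e-10). In the base 6 of 9 and in the lid 6 of 8 were lower, with Psmd1 at -1.37 (SE 0.17, adjusted p = 3.3e-07). Psma8 was at 0 in all 8 T-like libraries.

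Other genes of the pathway were read from lists by role, in microglia-like cells between hemispheres, where 21% of all genes tested were called as higher and 20.4% as lower. Among partners and assembly factors of the proteasome, 8 of 13 rose and 2 fell. Those that rose included Adrm1, a ubiquitin receptor of the base (0.60, SE 0.11, adjusted p = 0.00205), Usp14, a deubiquitinase of the cap (0.52, SE 0.11, adjusted p = 0.00658), and Sem1, the small lid subunit that the prefix misses (0.44, SE 0.08, adjusted p = 0.00218). The stress-induced Zfand2a (1.05, SE 0.17, adjusted p = 0.00209) had the largest value of this list. Akirin2, an importin adaptor for proteasomes (-0.42, SE 0.08, adjusted p = 0.00334), and Ube3c, a ligase bound to proteasomes (-0.44, SE 0.09, adjusted p = 0.00307), fell.
Of the 10 shuttle and segregase genes 6 rose, among them Sqstm1, the selective autophagy receptor p62 (1.34, SE 0.16, adjusted p = 0.000735), and Vcp, the segregase (0.59, SE 0.09, adjusted p = 0.000776). Of the 6 ubiquitin and first-enzyme genes 3 rose, with Uba1, the main activating enzyme, at 0.49 (SE 0.06, adjusted p = 0.000391).
None of the 7 genes of the immunoproteasome and peptide loading rose, and 3 fell: Psmb9 (-0.38, SE 0.11, adjusted p = 0.022), Tap2 (-0.32, SE 0.11, adjusted p = 0.0384) and Tapbp (-0.31, SE 0.06, adjusted p = 0.00416). Psmb8 had 0.01 (SE 0.07, adjusted p = 0.92) and Psmb10 -0.11 (SE 0.07, adjusted p = 0.23).
Of the 8 genes for transcription factors of proteasome genes and their processing 3 rose: Maff (2.07, SE 0.23, adjusted p = 0.00121), Nfe2l2, which encodes NRF2 (0.56, SE 0.10, adjusted p = 0.00223), and Mafk (0.50, SE 0.09, adjusted p = 0.00165). Nfe2l1 had 0.22 (SE 0.10, adjusted p = 0.090). Between the gates of ipsilateral cells, where 10.9% of all genes tested were called as higher in the stroke-associated gate and 13.3% as lower, 4 of 13 partners were higher and 1 was lower, and 4 of 10 shuttle and segregase genes were higher. Of the transcription factor list 2 of 8 were lower, Nfe2l2 (-0.47, SE 0.13, adjusted p = 0.019) and Mafk (-0.55, SE 0.14, adjusted p = 0.014), and Nfe2l1 had 0.23 (SE 0.14, adjusted p = 0.25). Of the immunoproteasome list 1 of 7 was lower, Psmb9 (-0.43, SE 0.14, adjusted p = 0.0347), and of the ubiquitin and first-enzyme list 1 of 6 was lower.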

How the data were processed

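UMI counts per gene and cell were used as deposited by the authors for 8 libraries, 39433266 to 70111421 UMIs each. Per the submitters' processing notes, Cell Ranger, Seurat and mm10 were used, and versions and read assignment are not given in the sources used here. Cells under 200 genes or above 10% mitochondrial counts were left out (337 cells), and the highest Scrublet scores (scanpy 1.11.5), 0.8% per 1000 cells, were left out as doublets (1583 cells).

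A cell was given the class whose marker score was at least 1.5 times the next, with at least 3 markers detected, by a scoring rule set after the files were seen. Ratios of 1.25 to 2 count as near the cut. Counts were summed per class and library and tested with edgeR 4.0.16 (quasi-likelihood, robust, TMM scaling, expression filter, Benjamini-Hochberg adjustment over all genes) with hemisphere, genotype label and time as terms over 8 libraries. Interactions were added to this fit, and class and gate comparisons kept the library as a block. The 4 libraries of a hemisphere differ in label and time and are not replicates of 1 condition. Fits on 1 time or 1 hemisphere alone hold 4 libraries, 1 for each combination of the remaining terms, and rest on little replication. CPM values are not TMM-scaled, and log2 fold changes are.

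Genes were named by a rule: in each comparison the 6 largest changes in each direction of 1 sign in every pair of libraries (mean 20 CPM or more), the 3 smallest p-values where fewer than 3 passed, and the active-site, receptor, activator, chaperone and tissue-restricted genes. The genes and lists were chosen with earlier results of these data known. Alternatives included DESeq2 1.42.0, other scalings, filters and cell sets, and leaving out each library. The classes' difference in hemisphere effect, the homeostatic gate alone and the gates in all 8 libraries were added after seeing the data. The fits of hemisphere and genotype label in microglia-like, monocyte/macrophage-like and neutrophil-like cells were also run on simulated counts, with outcomes not reported here. The other fits were not.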

Additional observations from a re-analysis of the deposited data

Results flagged for a closer look

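In all, 44 sets of 4 libraries of 1 hemisphere were examined for a library standing apart, and chance alone gives about 1 in 20. They were the summed levels in microglia-like, monocyte/macrophage-like, neutrophil-like and T-like cells, and named genes in microglia-like cells. In 2 sets, both of single genes in microglia-like cells, the highest library stood apart by its gap relative to the whole range. Both times it was the ipsilateral library labelled WT 24 h. Psmb5 was at 223.76 CPM there, against 194.1 to 198.5 CPM in the other ipsilateral libraries. Psmd2 was at 144.47 CPM there, against 133.84 to 135.57 CPM. In both genes the other ipsilateral libraries were also above all contralateral ones.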

How the results depend on the processing

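Of 301 counts of called genes under alternatives, over 19 results, 276 stayed within 1.5 times the reported count and 25 did not. The hemisphere count of 38 in microglia-like cells was 24 with the 48 h libraries alone, 31 to 39 with each library left out, and 37 with a block pairing hemispheres of the same label and time, which removed the call of Psmd10. Of the 38 calls, 24 were kept under all 18 alternatives, and 31 were lost at most with the 48 h libraries alone. The block changed no count in monocyte/macrophage-like or neutrophil-like cells. The time count of 2 in microglia-like cells was 1 with library totals, with DESeq2, with classes from clusters and with the WT libraries alone, 8 with the ipsilateral libraries alone, and 1 to 3 with each library left out. In monocyte/macrophage-like cells the hemisphere count of 0 was 1 with DESeq2 and 1 with the 48 h libraries alone, and 0 to 1 with each library left out, where Psmc3ip was called without the library labelled Prdx1-/- ipsilateral 48 h. The time count of 0 there was 1 with library totals and 3 with DESeq2. The interaction of hemisphere and time in microglia-like cells went from 0 to 1 without a filter on low counts, to 1 with DESeq2, and to 0 to 2 with each library left out. Neutrophil-like against microglia-like cells gave 44 with library totals, against 27. The gate comparison gave 10 to 30 with each library left out, against 27. The difference in hemisphere effect between monocyte/macrophage-like and microglia-like cells gave 11 with DESeq2, against 0. Of 361 values of 19 single genes in the hemisphere comparison of microglia-like cells, 337 kept their direction and side of the threshold, 17 lost the call, 3 gained it and 4 turned: Psme1 to -0.0209 with library totals and -0.0009 with the 48 h libraries alone, and Psmg3 to -0.0033 and -0.0921. The cause of these shifts was not tested. Among the classes with at least 20 cells in every library, the smallest sum was 175515 UMIs in T-like and 266919 UMIs in neutrophil-like cells. The sums of the stroke-associated gate, some of them smaller, are not included.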
